A study of Mus musculus with 22 samples.

Results

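The genes described here encode the receptor complex for bacterial lipopolysaccharide (LPS), the related lipid receptor TLR2, and the adaptors and kinases that carry their signal. They were chosen by name: Tlr2, Tlr4, Cd14, Ly96, Myd88, Ticam2, Irak1, Irak4 and Traf6. Of these 9 genes, 7 had a probe set that the platform annotation assigns to 1 gene, out of 11807 genes on the array. Ticam2 and Irak4 were not analysed here. Where a gene had several probe sets, the one brightest on average across the 22 arrays was used, and a level is the deposited log2 signal of that probe set.

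RNA came from cells scraped off the intima of mouse aortas, amplified and hybridised to Affymetrix arrays, 1 per sample. Opened aortas of wild-type C57BL/6 mice were kept for 4 h in DMEM with 1% FBS containing LPS at 4 ng/mL (n = 3), oxidized low-density lipoprotein (oxLDL) at 50 µg/mL (n = 3) or oxidized palmitoyl-arachidonoyl-phosphocholine (oxPAPC) at 50 µg/mL (n = 3), or in that medium alone (n = 3). Fresh, unincubated intima came from ApoE -/- mice of 4 weeks (n = 4), labelled hyperlipidemic and pre-lesion, and from 4-week wild-type mice (n = 6). All mice were C57BL/6 on chow. The labels give no age for the incubated aortas and do not tie arrays to animals, so p-values measure the spread between arrays. An LPS dose in ng and lipid doses in µg are not matched, while oxLDL and oxPAPC had the same concentration by mass.

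TLR4 recognises the lipid A part of LPS together with MD-2, the product of Ly96, after CD14 has handed the LPS over. TLR2 recognises bacterial lipopeptides as a dimer with TLR1 or TLR6. Both receptors recruit MyD88, which assembles the kinases IRAK4 and IRAK1 and passes the signal to the ubiquitin ligase TRAF6 and on to NF-kB. From endosomes TLR4 also signals through TRAM, the product of Ticam2, and TRIF, which leads to interferon-type genes such as Cxcl10. Oxidized phospholipids are known both to engage these receptors and to block their response to LPS.

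Promoter windows from 250 bases before to 50 bases after the gene start (RefSeq, GRCm38.p6) were searched for 5 of the 9 genes: Tlr2, Myd88, Irak1, Irak4 and Traf6. The windows of the other members are not reported here. The windows of Tlr2, Myd88 and Traf6 are printed because these 3 genes were all higher in medium-incubated than in fresh wild-type intima. They lie at chr3:83841559-83841858 on the minus strand (Tlr2), chr9:119339969-119340268 on the minus strand (Myd88) and chr2:101678170-101678469 on the plus strand (Traf6). Capitals mark matches, on either strand, to the NF-kB consensus, the interferon response core GAAANNGAA, the AP-1 motif TGANTCA, the PU.1 core GAGGAA or the Sp1 box GGGCGG.
Tlr2: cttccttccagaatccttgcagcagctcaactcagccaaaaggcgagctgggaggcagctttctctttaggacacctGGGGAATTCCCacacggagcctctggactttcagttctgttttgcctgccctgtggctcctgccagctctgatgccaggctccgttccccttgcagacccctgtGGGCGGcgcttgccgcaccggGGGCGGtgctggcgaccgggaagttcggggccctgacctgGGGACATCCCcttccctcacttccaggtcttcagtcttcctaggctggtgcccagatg
Myd88: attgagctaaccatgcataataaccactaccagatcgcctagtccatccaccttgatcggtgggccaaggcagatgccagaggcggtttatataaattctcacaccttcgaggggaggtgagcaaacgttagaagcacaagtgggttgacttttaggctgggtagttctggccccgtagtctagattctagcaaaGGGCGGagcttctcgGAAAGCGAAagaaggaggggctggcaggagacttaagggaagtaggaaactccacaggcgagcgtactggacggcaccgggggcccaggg
Traf6: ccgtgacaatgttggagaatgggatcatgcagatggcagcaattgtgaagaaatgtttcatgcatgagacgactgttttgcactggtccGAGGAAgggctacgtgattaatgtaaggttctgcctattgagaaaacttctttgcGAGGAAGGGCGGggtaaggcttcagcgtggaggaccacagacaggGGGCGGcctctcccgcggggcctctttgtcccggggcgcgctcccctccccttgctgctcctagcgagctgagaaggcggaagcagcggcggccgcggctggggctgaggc
The Tlr2 window holds the NF-kB consensus at overlapping positions whose first bases are at −173 and −172 from the gene start, again at −8, and Sp1 boxes at −69 and −48. The Myd88 window holds 1 interferon response core at −40 and a Sp1 box at −55, and no match to the NF-kB letters. The Traf6 window holds PU.1 cores at −161 and −106 and Sp1 boxes at −100 and −61, the second core running directly into a Sp1 box. Over 32851 RefSeq windows of the same length, the NF-kB consensus occurred in 8.46%, the interferon core in 8.56%, the AP-1 motif in 7.81%, the PU.1 core in 28.3% and the Sp1 box in 35.7%. Irak1, whose windows are not printed, also had the NF-kB consensus, at −18 or −21 depending on the gene start, and Sp1 boxes. Irak1 was not called in medium over fresh wild-type intima. All these matches describe letters, not bound sites.

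Array medians lay between 5.23 and 5.39, and arrays of 1 group correlated at r = 0.977 to 0.991 over the 11807 genes, 1 probe set each. The 40th percentile of an array, used as the level filter, lay between 4.58 and 4.71. Apoe was at 3.11 ± 0.0906 in ApoE -/- intima (SD, n = 4) and 4.11 ± 0.198 in wild-type intima (SD, n = 6), below that percentile on every array. It is unknown if these probes fall within the deletion. Of 16 endothelial marker genes on the array, 14 or 15 were above the 40th percentile on every array, and Robo4 on none. Smooth muscle markers were also above it, 12 to 14 of 14 per array. Of 9 neutrophil markers, 1 or 2 were above it. The macrophage markers Itgam and Ccr2 were below the percentile on every array, while 5 to 15 of 18 macrophage and monocyte markers were above it. Because each array reads mixed RNA, fewer cells of a type and less RNA per cell cannot be told apart in any result that follows.

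**Figure D1:**
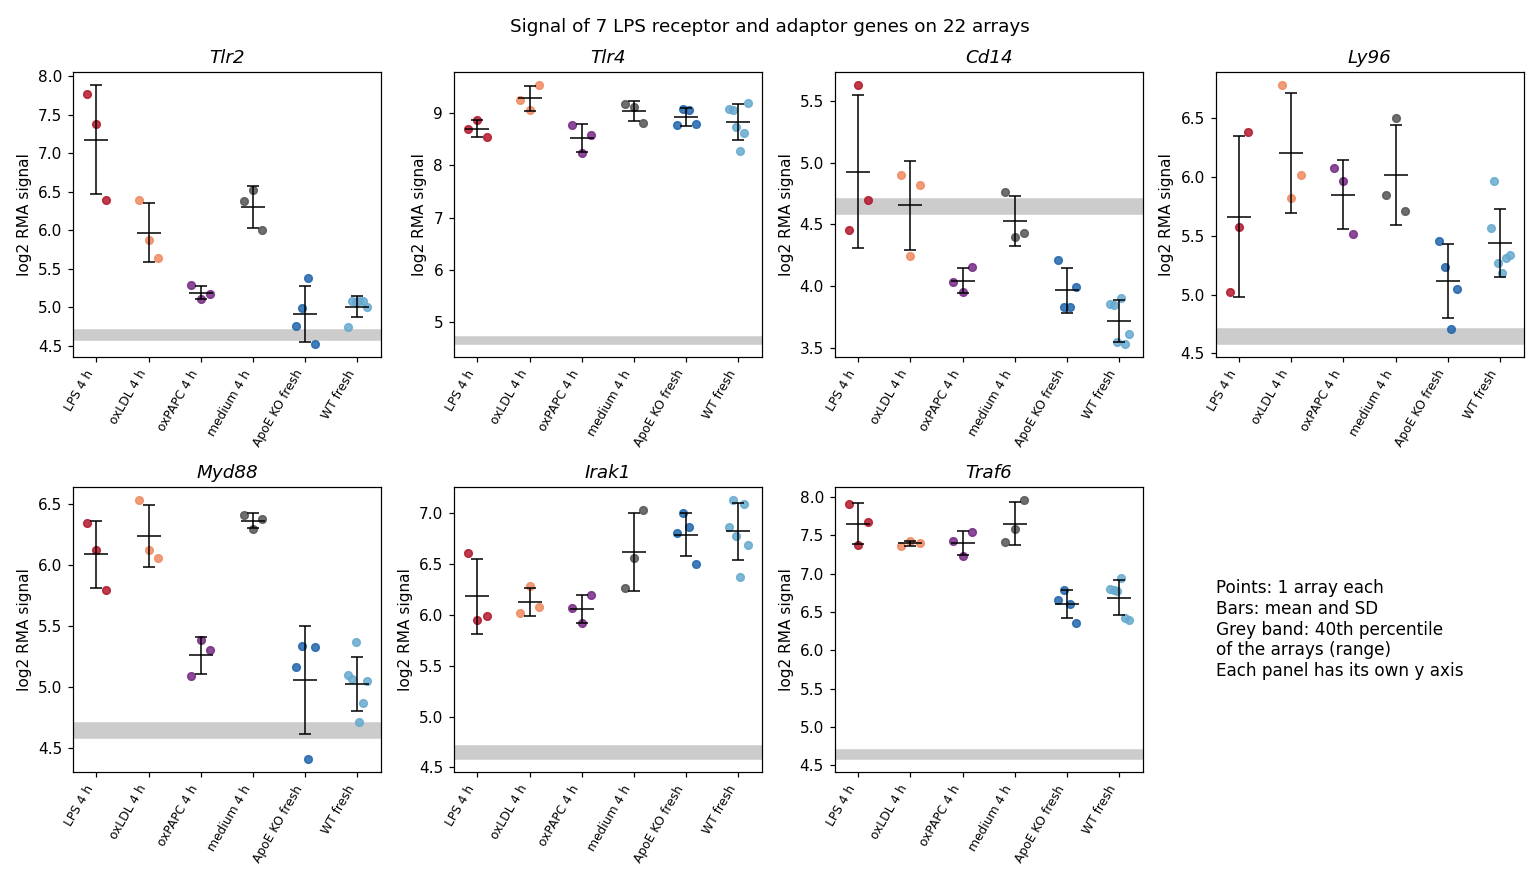
Level of each of the 7 genes on every array, in log2 signal, by group. Points are arrays, bars the group mean with SD, and the grey band the range of the arrays' 40th percentile. Tlr2 and Myd88 in incubated intima stand above fresh intima except with oxPAPC. Cd14 lies below the band in both fresh groups and with oxPAPC, and on either side of it in the other incubated groups.

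In fresh wild-type intima the receptor genes were unevenly detected. Tlr4 ran between 8.28 and 9.19 (median 8.90) on the 6 arrays and was above the 40th percentile on all of them. Tlr2 ran between 4.75 and 5.09 (median 5.08), above the percentile on 6 of 6 arrays but close to it. Cd14 was below it on 6 of 6 arrays, at 3.54 to 3.91. The adaptor genes Irak1 and Traf6 averaged 6.82 ± 0.279 and 6.69 ± 0.224 (SD, n = 6), and Myd88 averaged 5.03 ± 0.222. Levels of different probe sets are not comparable with each other, so no order among the genes is given.

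Incubation in medium alone, set against fresh wild-type intima, went with higher Tlr2, Ly96, Myd88 and Traf6. These were 4 of the 6 tested members, all 4 of them higher. The background was wide, since 58.7% of the 7508 genes tested passed in 1 or the other direction (limma, Benjamini-Hochberg adjusted p under 0.05), and a share of 4 in 6 called in either direction is near it. By direction, 1824 of those genes were higher in medium and 2586 lower. Each of the 4 was above the 40th percentile on all arrays of both groups. Incubation, medium and any difference in age go together in this comparison and cannot be told apart.

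Tlr2 stood at 6.39, 6.52 and 6.00 in medium, against 4.75 to 5.09 (median 5.08) in fresh wild-type intima. The groups did not overlap, and the difference was 1.29 ± 0.14 on the log2 scale (SE; 95% interval 0.99 to 1.59), 2.45-fold, with an adjusted p of 2.11e-05. Myd88, the adaptor that both receptors use, stood at 6.41, 6.29 and 6.38 in medium, against 4.71 to 5.37 (median 5.06) in fresh intima. Every medium array was above every fresh array, by 1.34 ± 0.14 on average (2.52-fold, adjusted p = 2.04e-05). Traf6 was at 7.41, 7.59 and 7.96 in medium, against 6.40 to 6.95 (median 6.78) in fresh intima, a difference of 0.96 ± 0.16 (1.95-fold, adjusted p = 0.000509) without overlap. Ly96, which encodes the LPS-binding partner of TLR4, was at 5.84, 6.50 and 5.71 in medium, against 5.18 to 5.97 (median 5.33) in fresh intima.

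The Ly96 groups overlapped and its difference of 0.58 ± 0.21 passed with an adjusted p of 0.0346. It did not pass without medium replicate 10 (0.34, adjusted p = 0.191) or without any 1 of wild-type replicates 12, 13, 14 and 15 (adjusted p = 0.0554 to 0.0636). Tlr4 itself averaged 9.04 ± 0.194 in medium and 8.83 ± 0.347 in fresh intima, 0.21 apart with a 95% interval of −0.23 to 0.65 (adjusted p = 0.378). Irak1 averaged 6.61 ± 0.385 in medium and 6.82 ± 0.279 in fresh intima, −0.20 apart (adjusted p = 0.398). Cd14, which presents LPS to TLR4, was at 4.76, 4.40 and 4.43 in medium, against 3.54 to 3.91 (median 3.74) in fresh intima. It was too low to enter the fit across genes. All 3 medium arrays were above all 6 fresh arrays, by 0.81 on average, and a two-sided exact permutation test gave p = 0.0119, the smallest its 84 splits allow. Only 1 of those 3 medium arrays exceeded the 40th percentile.

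Macrophage and monocyte markers moved with this difference, where 58.7% of all genes were called. All 13 of the tested markers out of 18 were higher, with a median difference of 1.33 against −0.13 over all genes, and the mean level of the 18 markers lay at 6.18 to 6.35 in medium, against 4.93 to 5.47 in fresh wild-type intima. Of the 13, C1qa and Mrc1 passed the level filter only through the medium arrays. Smooth muscle markers were lower, 12 called of 14 on the array, at mean levels of 7.52 to 8.39 in medium and 8.60 to 9.43 in fresh intima. Of 8 tested fibroblast and adventitial markers 6 were lower and 2 higher (median −1.63), with mean levels of 6.45 to 7.05 in medium and 7.65 to 8.05 in fresh intima. The part of these markers in the differences of Tlr2, Ly96, Myd88 and Traf6 was not tested.

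**Figure D2:**
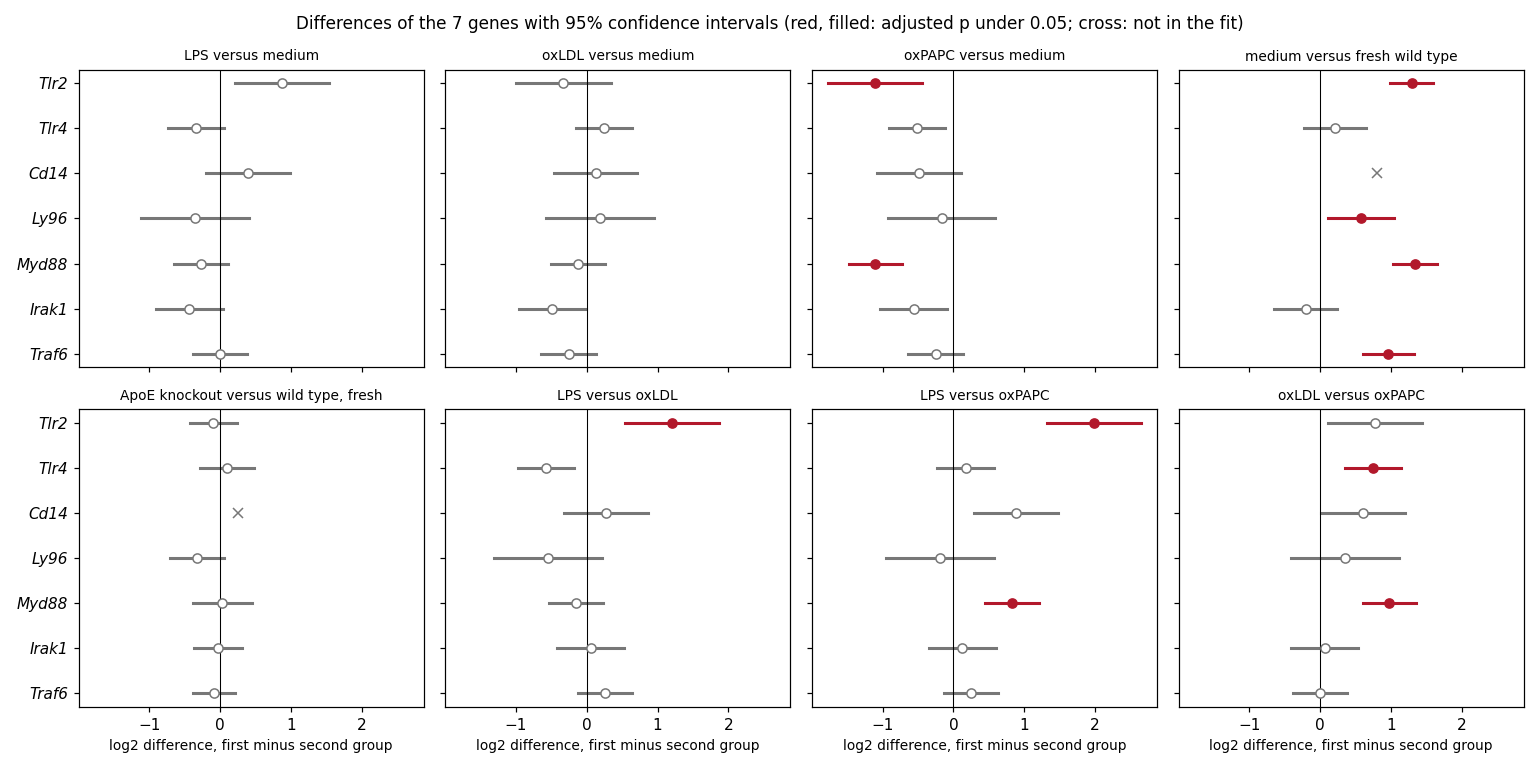
Difference of each gene in each of the 8 comparisons, in log2 units with the 95% interval, first-named group minus second. Red marks an adjusted p under 0.05 and a cross a gene below the level filter; red points are 4 in medium over fresh intima, 2 below 0 in oxPAPC over medium, 2 each in LPS over oxPAPC and oxLDL over oxPAPC, 1 in LPS over oxLDL, and none in the other 3 comparisons.

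Each stimulus was compared with the same 3 medium arrays, which also enter the comparison with fresh intima, so a high or low medium array touches all 4. With oxPAPC, 2 of 7 members, Tlr2 and Myd88, were lower than in medium, and none was higher. The background was 21.3% of 7550 genes called in either direction, and 2 of 7 is not far from it. By direction, 630 of those genes were higher with oxPAPC and 976 lower. Tlr2 was at 5.29, 5.11 and 5.18 with oxPAPC, against 6.39, 6.52 and 6.00 in medium. The groups did not overlap. The difference was −1.11 ± 0.31 (95% interval −1.78 to −0.44), which is 2.16-fold lower, with an adjusted p of 0.0254. This call was lost without medium replicate 9 or 10 or oxPAPC replicate 11 or 12 (adjusted p = 0.0631 to 0.081).

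Myd88 was at 5.09, 5.38 and 5.31 with oxPAPC, against 6.41, 6.29 and 6.38 in medium. All oxPAPC arrays lay below all medium arrays, at −1.10 ± 0.17 (95% interval −1.48 to −0.72), 2.15-fold lower, adjusted p = 0.00241. That call held under every alternative run, with adjusted p-values between 0.00181 and 0.0129. The levels with oxPAPC, 5.26 ± 0.154 for Myd88 and 5.19 ± 0.0874 for Tlr2 (SD, n = 3), stood beside 5.03 ± 0.222 and 5.01 ± 0.131 in fresh wild-type intima (SD, n = 6), a pair of groups for which no test was run.

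The remaining members were not called with oxPAPC. Tlr4 was at 8.77, 8.24 and 8.58 with oxPAPC, against 9.18, 9.12 and 8.82 in medium. The groups just failed to overlap and the difference was −0.51 ± 0.18 (95% interval −0.91 to −0.11, adjusted p = 0.0642). Cd14 was at 4.03, 3.95 and 4.16 with oxPAPC, against 4.76, 4.40 and 4.43 in medium, −0.48 ± 0.27 with an adjusted p of 0.221. No oxPAPC array had Cd14 above the 40th percentile. Irak1, the kinase recruited by MyD88, was at 6.07, 5.91 and 6.19 with oxPAPC, against 6.26, 6.56 and 7.02 in medium (−0.56 ± 0.22, adjusted p = 0.0853). With the mean of its 2 probe sets the Irak1 difference was −0.65 and passed, with an adjusted p of 0.0182. Ly96 (−0.17, adjusted p = 0.76) and Traf6 (−0.25, adjusted p = 0.323) overlapped with medium.

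Beside these differences, 9 of 16 tested macrophage and monocyte markers were lower with oxPAPC and none higher (median −0.75, against −0.05 over all genes, of which 21.3% were called). Their mean level was 5.66 to 5.77 with oxPAPC and 6.18 to 6.35 in medium, and C1qa and Fcgr1 were below the 40th percentile on every oxPAPC array. Endothelial markers were lower for 8 of 15 tested (median −0.86), at mean levels of 7.53 to 8.11 with oxPAPC and 8.38 to 8.55 in medium, and 9 smooth muscle markers were higher. What part these shifts have in Tlr2 and Myd88 was not tested.

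**Figure D3:**
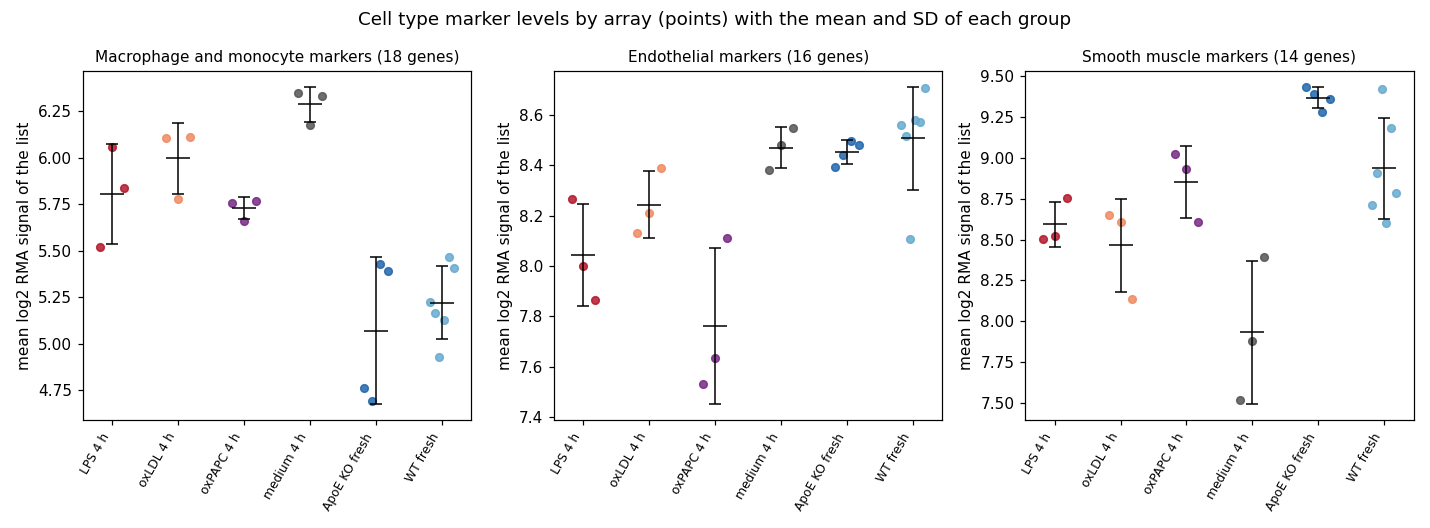
Mean log2 level of the macrophage and monocyte, endothelial and smooth muscle marker lists on every array, by group. Macrophage and monocyte markers sit at 6.18 to 6.35 in medium, above all arrays of the other 5 groups.

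With LPS, the ligand of TLR4, none of the 7 members was called against medium, where 9.05% of 7550 genes were called, and 2071 genes had an unadjusted p under 0.05. Among members that held for Tlr2 alone. Tlr2 was at 7.77, 7.38 and 6.39 with LPS, against 6.39, 6.52 and 6.00 in medium. LPS replicates 3 and 4 lay above all medium arrays, while replicate 10 lay within their range. The difference was 0.88 ± 0.31 (95% interval 0.21 to 1.54), 1.83-fold, with an unadjusted p of 0.0142 and an adjusted p of 0.089. Without LPS replicate 10 it was 1.27 and passed (adjusted p = 0.0155).

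Tlr4 was at 8.70, 8.87 and 8.53 with LPS, against 9.18, 9.12 and 8.82 in medium, −0.34 ± 0.18 (95% interval −0.74 to 0.06, adjusted p = 0.243). Cd14 was at 4.46, 5.63 and 4.69 with LPS, against 4.76, 4.40 and 4.43 in medium. LPS replicate 4 alone lay above the medium range, and the difference was 0.40 ± 0.27 (adjusted p = 0.365). Ly96 spread widely, at 5.02, 5.58 and 6.38 with LPS, against 5.84, 6.50 and 5.71 in medium (−0.36 ± 0.35, adjusted p = 0.532). Myd88 averaged 6.09 ± 0.275 with LPS and 6.36 ± 0.0614 in medium (−0.27, adjusted p = 0.326). Traf6 averaged 7.65 ± 0.268 with LPS and 7.65 ± 0.281 in medium, with a 95% interval of the difference from −0.39 to 0.38. Irak1 was at 6.60, 5.95 and 5.98 with LPS, against 6.26, 6.56 and 7.02 in medium (−0.43 ± 0.22, adjusted p = 0.215). Its mean over both probe sets differed by −0.65 and passed, with an adjusted p of 0.0346.

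Under LPS the macrophage and monocyte markers also shifted, with 1 called higher (Fcgr1) and 5 lower of 16 tested (median −0.64), beside 9.05% of all genes. Fcgr1, below the 40th percentile on every medium array, passed the level filter only through the LPS arrays, so it had to differ to be tested. Mean levels of the list were 5.52 to 6.06 with LPS and 6.18 to 6.35 in medium. Endothelial markers were lower for 4 of 15 tested (median −0.51), and smooth muscle markers higher for 3 of 14, Tpm2, Lmod1 and Myh11 (median 0.72). The part of these shifts in the members' values was not tested.

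With oxLDL none of the 7 members was called against medium, beside a background of 2.81% of 7550 genes and 1635 genes with an unadjusted p under 0.05. Of the members, Irak1 had an unadjusted p under 0.05. It was at 6.02, 6.28 and 6.07 with oxLDL, against 6.26, 6.56 and 7.02 in medium, with 2 of 3 oxLDL arrays below the medium range. The difference was −0.49 ± 0.22 (95% interval −0.96 to −0.02), unadjusted p = 0.0435 and adjusted p = 0.216. Tlr2 was at 6.40, 5.88 and 5.65 with oxLDL, against 6.39, 6.52 and 6.00 in medium (−0.33 ± 0.31, adjusted p = 0.559). Tlr4 was at 9.24, 9.07 and 9.54 with oxLDL, against 9.18, 9.12 and 8.82 in medium (0.24 ± 0.18, adjusted p = 0.47). For Cd14, Ly96, Myd88 and Traf6 the differences lay between −0.26 and 0.19, with adjusted p-values from 0.423 to 0.816. The 95% interval for Myd88 was −0.50 to 0.25, and that for Ly96 was wider, −0.58 to 0.95. Macrophage and monocyte markers averaged 5.78 to 6.11 with oxLDL and 6.18 to 6.35 in medium, with 1 of 16 called lower, beside 2.81% of all genes. Of 15 endothelial markers 1 was lower, Emcn (median −0.04), and no smooth muscle marker of 14 was called (median 0.62). Lum and Dcn were lower among 8 fibroblast and adventitial markers (median 0.20). What part these markers have in the members' values was not tested.

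The stimuli were also compared directly. LPS over oxPAPC called 2 of 7 members, both higher with LPS, beside a background of 8.65% of genes. Tlr2 was at 7.77, 7.38 and 6.39 with LPS, against 5.29, 5.11 and 5.18 with oxPAPC, 1.99 ± 0.31 apart (95% interval 1.32 to 2.65), 3.96-fold, adjusted p = 0.00261. Every LPS array was above every oxPAPC array, and the call held under every alternative run, with adjusted p-values of 0.000391 to 0.02. Myd88 was at 6.34, 6.12 and 5.79 with LPS, against 5.09, 5.38 and 5.31 with oxPAPC (0.83 ± 0.17, 1.77-fold, adjusted p = 0.0141). The Myd88 groups did not overlap, but its call was lost without LPS replicate 3 or 4 or oxPAPC replicate 11 (adjusted p = 0.0577 to 0.0656). Cd14 did not overlap either, at 0.88 ± 0.27 with an adjusted p of 0.0669, and passed without LPS replicate 3 (1.11, adjusted p = 0.0474). For Tlr4, Ly96, Irak1 and Traf6 the differences lay between −0.19 and 0.25, and none passed. In the same comparison 3 of 15 endothelial markers were higher with LPS (Cdh5, Cldn5 and Emcn) and 1 lower (Clec14a), with a median of 0.45. Of 16 macrophage and monocyte markers 1 was higher, Fcgr1, which passed the level filter only through the LPS arrays. The part of these markers in the Tlr2 and Myd88 differences was not tested.

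The oxLDL and oxPAPC comparison is the 1 between stimuli of equal mass concentration. It called 2 of 7 members, both higher with oxLDL, against a background of 12.4% of genes. Myd88 was at 6.53, 6.12 and 6.06 with oxLDL, against 5.09, 5.38 and 5.31 with oxPAPC, without overlap (0.98 ± 0.17, 1.97-fold, adjusted p = 0.00661). This was called under every alternative run, with adjusted p-values of 0.00457 to 0.03. Tlr4 was at 9.24, 9.07 and 9.54 with oxLDL, against 8.77, 8.24 and 8.58 with oxPAPC. The Tlr4 groups did not overlap and differed by 0.75 ± 0.18 (95% interval 0.36 to 1.15), 1.68-fold, adjusted p = 0.0206. This Tlr4 call was lost without oxLDL replicate 16 (0.62, adjusted p = 0.0841), without oxPAPC replicate 12 (0.61, adjusted p = 0.0943), and with only these 2 groups in the fit (adjusted p = 0.0598). Its second, dimmer probe set differed by 0.35. Tlr2 (0.78 ± 0.31, adjusted p = 0.114) and Cd14 (0.61 ± 0.27, adjusted p = 0.165) did not overlap between oxLDL and oxPAPC but were not called. Traf6 averaged 7.40 ± 0.0334 with oxLDL and 7.40 ± 0.154 with oxPAPC. Markers moved here too: 5 of 15 endothelial markers were higher with oxLDL (median 0.69), 2 of 16 macrophage and monocyte markers were higher (Lyz2 and Fcgr3), and 2 of 14 smooth muscle markers were lower (Itga8 and Ldb3). Their part in the Myd88 and Tlr4 differences was not tested.

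LPS over oxLDL called 1 of 7 members, beside a background of 5.07% of genes. Tlr2 was at 7.77, 7.38 and 6.39 with LPS, against 6.40, 5.88 and 5.65 with oxLDL. LPS replicate 10 lay within the oxLDL range, so the groups overlapped. The difference was 1.21 ± 0.31 (95% interval 0.54 to 1.87), 2.31-fold, adjusted p = 0.0426. It was not called without LPS replicate 3 or 4 or oxLDL replicate 15 or 16 (adjusted p = 0.117 to 0.134). Tlr4 was at 8.70, 8.87 and 8.53 with LPS, against 9.24, 9.07 and 9.54 with oxLDL. Its groups did not overlap, and the difference of −0.58 ± 0.18 was not called (adjusted p = 0.0872). Of the macrophage and monocyte markers 1 of 16 was higher with LPS (Fcgr1, which passed the level filter only through the LPS arrays) and 2 were lower. Of 15 endothelial markers 1 was higher and 2 were lower. The part of the markers of both cell types in the Tlr2 difference was not tested.

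In fresh intima of ApoE -/- mice none of the 6 tested members was called against wild type. The background was low, at 0.427% of 7264 genes called, while 1328 genes had an unadjusted p under 0.05. Tlr4 was at 8.76, 9.08, 9.06 and 8.79 in ApoE -/- intima, against 8.28 to 9.19 (median 8.90) in wild type, 0.10 apart with a 95% interval of −0.28 to 0.48. Tlr2 was at 4.77, 4.99, 5.38 and 4.53 in ApoE -/- intima, against 4.75 to 5.09 (median 5.08) in wild type (−0.10, interval −0.43 to 0.23). Ly96 was at 5.46, 5.24, 4.71 and 5.05 in ApoE -/- intima, against 5.18 to 5.97 (median 5.33) in wild type. It had the smallest p of the 6 members, with a difference of −0.33 ± 0.18 (unadjusted p = 0.0912, adjusted p = 0.35) and overlapping groups.

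Among the adaptor genes, Myd88 averaged 5.06 ± 0.442 in ApoE -/- and 5.03 ± 0.222 in wild-type intima, Irak1 6.79 ± 0.21 and 6.82 ± 0.279, and Traf6 6.60 ± 0.184 and 6.69 ± 0.224 (SD, n = 4 and n = 6). Their 95% intervals reached no further than −0.38 and 0.44. Cd14 was at 4.21, 3.83, 3.84 and 3.99 in ApoE -/- intima and 3.54 to 3.91 (median 3.74) in wild type. All of these lay below the 40th percentile, and an exact permutation test over 210 splits gave p = 0.0714 for the difference of 0.25. Of the macrophage and monocyte markers none of 11 tested was called, and the mean level was 4.69 to 5.43 in ApoE -/- and 4.93 to 5.47 in wild-type intima.

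Ordered by group mean, Tlr2 was highest with LPS (7.18 ± 0.712), then in medium (6.30 ± 0.271), oxLDL (5.97 ± 0.387), oxPAPC (5.19 ± 0.0874), fresh wild type (5.01 ± 0.131) and fresh ApoE -/- (4.92 ± 0.364). Among neighbours in that order, oxLDL and oxPAPC did not overlap, nor did oxPAPC and wild type, while the other neighbours did. For Myd88, medium (6.36), oxLDL (6.24) and LPS (6.09) overlapped each other and stood apart from oxPAPC (5.26), which overlapped with both fresh groups. For Tlr4 every neighbouring pair overlapped, between 9.28 ± 0.24 with oxLDL and 8.53 ± 0.269 with oxPAPC. Cd14 was highest with LPS (4.93 ± 0.619) and lowest in fresh wild type (3.72 ± 0.171), with a gap between oxPAPC (4.05 ± 0.102) and medium (4.53 ± 0.201). For Ly96 and Irak1 every neighbouring pair overlapped. Ly96 ran between 6.20 with oxLDL and 5.11 in ApoE -/- intima, and Irak1 between 6.82 in wild type and 6.06 with oxPAPC. In Traf6 the 4 incubated groups (7.40 to 7.65) stood apart from the 2 fresh ones (6.60 and 6.69). On its second probe set they did not, with oxLDL at 6.38 ± 0.513, ApoE -/- at 6.56 ± 0.386 and wild type at 6.53 ± 0.284.

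Tlr4, Irak1 and Traf6 each had a second, dimmer probe set, and these disagreed with the first in size and in places in sign. The second Tlr4 probe set differed by −0.05 for oxLDL over medium, where the first gave 0.24, and by 0.61 for medium over fresh wild type, where the first gave 0.21. For LPS over oxLDL it differed by 0.02, where the first gave −0.58. For oxPAPC over medium both Tlr4 probe sets were lower, by −0.40 and −0.51. The second Irak1 probe set gave −0.86 for LPS over medium, beyond the −0.43 of the first, and it was above the 40th percentile on 17 of 22 arrays. Traf6 was higher in medium than in fresh intima by both, 0.42 on the second and 0.96 on the first. The second Traf6 probe set gave −0.58 for oxLDL over medium, where the first gave −0.26, and −0.51 for oxLDL over oxPAPC, where the first gave −0.005.

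The genes whose levels followed a receptor most closely were sought among 7940 genes over all 22 arrays, as a description without a test, since the arrays share groups and the fresh and incubated arrays differ as blocks. For Tlr2 these were Upp1, a uridine phosphorylase (r = 0.944), Il6, an inflammatory cytokine (r = 0.923), and Cemip2 (r = 0.922). Within the 12 incubated arrays Tlr2 and Il6 had r = 0.877, while within the 10 fresh arrays r was −0.701. For Upp1 and Cemip2 r was 0.916 and 0.901 within the incubated arrays, and 0.385 and 0.368 within the fresh ones. For Cd14 the closest were Ears2 (r = 0.910), 2410002F23Rik (r = 0.879) and the cytokine gene Il1b (r = 0.871). In that order, r was 0.914, 0.820 and 0.764 within the incubated arrays, and 0.428, 0.420 and 0.434 within the fresh ones. Cd14 was below the 40th percentile on every fresh and every oxPAPC array. For Tlr4 the closest were Slu7 (r = 0.770), Ewsr1 (r = 0.761) and Khdrbs1 (r = 0.712), which encode RNA-binding or splicing proteins.

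**Figure D4:**
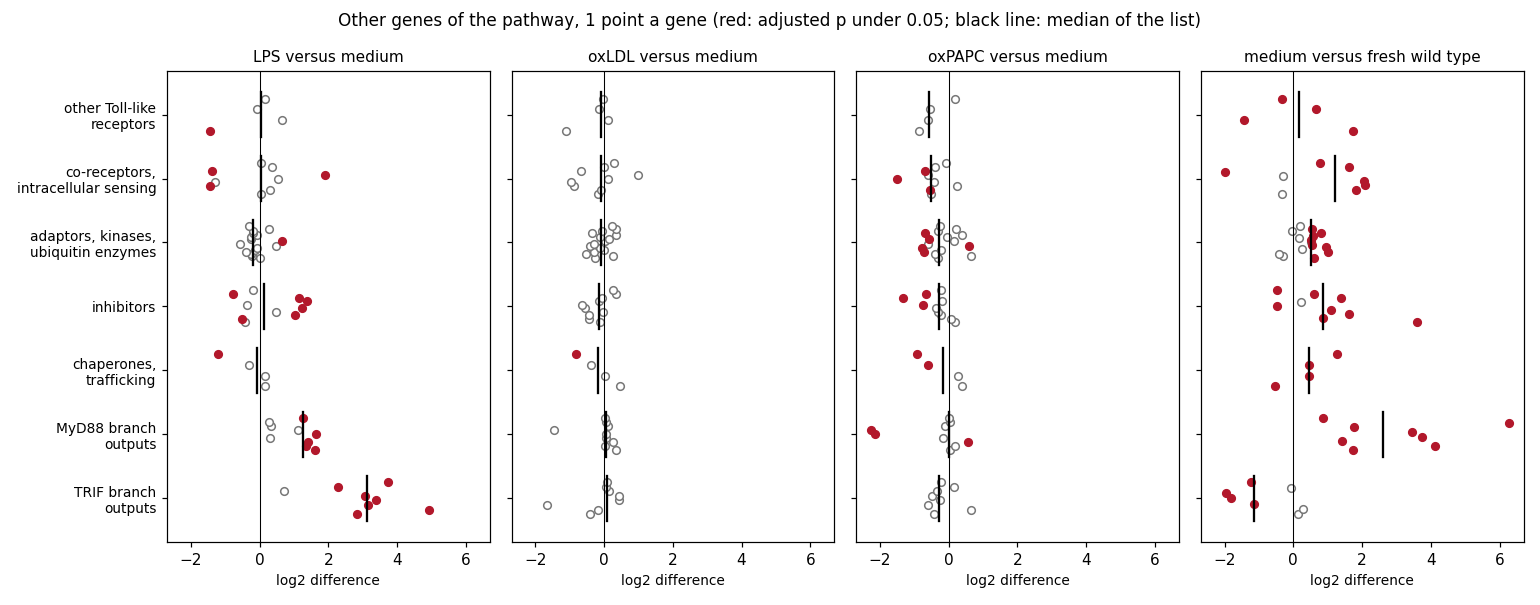
Log2 differences of the tested genes in the 7 lists around the receptors, for LPS, oxLDL and oxPAPC over medium and for medium over fresh wild type. With LPS 5 of 9 MyD88 branch outputs and 7 of 8 TRIF branch outputs are called higher, beside 9.05% of all genes called. Of these, Csf2, Ccl5 and Mx1 passed the level filter only through the LPS arrays. No output of either branch is called with oxLDL, beside 2.81% of all genes.

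The genes that the receptors drive were read from 2 lists. Of the outputs of the MyD88 branch, 5 of 9 tested were higher with LPS than in medium and none was lower (median 1.27, against −0.03 over all genes, of which 9.05% were called). Among them were the neutrophil chemokine genes Cxcl2 (1.40 ± 0.14, adjusted p = 0.000392) and Cxcl1 (1.37, adjusted p = 0.0087) and the cytokine Il1b (1.65 ± 0.28, adjusted p = 0.00651). Of the outputs of the TRIF branch, 7 of 8 tested were higher with LPS (median 3.11), among them the chemokine gene Cxcl10 (4.93 ± 0.34, adjusted p = 1.93e-05) and the antiviral gene Rsad2 (3.73 ± 0.38, adjusted p = 0.00041). Csf2 in the first list and Ccl5 and Mx1 in the second passed the level filter only through the LPS arrays, so they had to differ to be tested. With oxLDL none of these 9 and 8 genes was called, beside 2.81% of all genes.

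With oxPAPC, where 21.3% of all genes were called, the MyD88 outputs split, 1 of 9 higher and 2 lower. Cxcl2 was higher (0.56, adjusted p = 0.0156), while Il1b (−2.16 ± 0.28, adjusted p = 0.00104) and Il6 (−2.26 ± 0.67, adjusted p = 0.0337) were lower, and no TRIF output was called. In medium over fresh wild-type intima all 8 tested MyD88 outputs were higher (median 2.62), among them Cxcl2 (4.12 ± 0.22) and Nfkbiz (1.78 ± 0.12), where 58.7% of all genes were called. Of these 8, Il1b, Il6 and Ptgs2 passed the filter only through the medium arrays. Of 7 tested TRIF outputs 4 were lower and none higher, Ifit3 by −1.95 ± 0.34, a share near that of all genes called in either direction. Ifit2 of the 4 passed the filter only through the fresh arrays. In ApoE -/- over wild-type intima none of 5 tested genes in either list was called.

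Inhibitors of the pathway moved with LPS as well, 4 of 10 higher and 2 lower (median 0.14), beside 9.05% of all genes called. The higher ones included Nfkbia, the NF-kB inhibitor IκBα (1.04 ± 0.18, adjusted p = 0.00869), and Tnip1, whose product partners the deubiquitinase A20 (1.14, adjusted p = 0.0286). The other 2, Tnfaip3, which encodes A20, and Nfkbie, passed the level filter only through the LPS arrays, so they had to differ to be tested. Tnfaip3 averaged 5.19 ± 0.326 with LPS and 3.82 ± 0.214 in medium. Tollip, which binds IRAK1, was lower (−0.78 ± 0.15, adjusted p = 0.0112). With oxPAPC, 3 of 10 inhibitors were lower and none higher (median −0.28, against −0.05 over all genes), a share not far from the 21.3% of all genes called in either direction. Among the 3 were Tnip1 (−1.33 ± 0.28, adjusted p = 0.00814) and Tollip (−0.65, adjusted p = 0.0117). With oxLDL none of 10 was called. Medium over fresh intima had 6 of 9 inhibitors higher and 2 lower (median 0.86, against −0.13 over all genes, of which 58.7% were called). Of the lower ones, Sigirr passed the filter only through the fresh arrays.

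Among other adaptors and kinases, 16 were tested in incubated intima. With LPS 1 was higher, Pik3ap1 (0.67 ± 0.14, adjusted p = 0.0173), beside 9.05% of all genes, and the median was −0.19. With oxLDL none was called, and with oxPAPC 1 was higher and 4 were lower (median −0.28), beside 21.3% of all genes. The ubiquitin ligase gene Peli1 was the higher one (0.60, adjusted p = 0.0118). Tbk1, the kinase of the interferon arm (−0.68, adjusted p = 0.0164), Map3k8 (−0.78), Irf5 (−0.71) and the NF-kB subunit gene Rela (−0.57, adjusted p = 0.0395) were lower. Medium over fresh intima had 8 of 15 higher and none lower (median 0.51, against −0.13 over all genes), Tbk1 by 0.81 and Ikbkb by 0.61. That share is near the 58.7% of all genes called in either direction, with 1824 genes higher and 2586 lower. Irf5 and Map3k8 were among the 8 and passed the filter only through the medium arrays.

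Co-receptors and intracellular LPS sensors differed among themselves. With LPS, 1 of 9 was higher and 2 were lower, beside 9.05% of all genes. The guanylate-binding protein gene Gbp3 was higher (1.90 ± 0.44, adjusted p = 0.0245). The leukocyte integrin gene Itgb2 (−1.38 ± 0.20, adjusted p = 0.00336) and the scavenger receptor gene Cd36 (−1.44 ± 0.40, adjusted p = 0.0463) were lower. With oxPAPC, 3 of 9 were lower and none higher, beside 21.3% of all genes, namely Gbp2 (−1.49, adjusted p = 0.0276), Itgb2 (−0.68, adjusted p = 0.0337) and Casp4, the caspase that binds LPS in the cytosol (−0.54, adjusted p = 0.0473). Medium over fresh intima had 5 of 8 higher, Casp4 by 1.82 ± 0.14 and Itgb2 by 1.61 ± 0.17, and 1 lower, Gbp3 by −1.98 ± 0.46 (median 1.20), beside 58.7% of all genes. Clec7a, among the 5, passed the filter only through the medium arrays. Of 4 tested genes for chaperones and trafficking of the receptors, the small GTPase gene Rab7b was lower with LPS (−1.20 ± 0.15, adjusted p = 0.00132), oxLDL (−0.82 ± 0.15, adjusted p = 0.0179) and oxPAPC (−0.93 ± 0.15, adjusted p = 0.00234), 3 comparisons that share the medium arrays. It alone was called with LPS and with oxLDL, beside 9.05% and 2.81% of all genes. With oxPAPC Rab11a was lower too, so 2 of 4 were called, beside 21.3% of all genes. Rab7b was higher in medium than in fresh intima (1.26 ± 0.12, adjusted p = 8.51e-06). So were Rab10 and Rab11a, while Hsp90b1 was lower there, beside 58.7% of all genes. Among other Toll-like receptor genes and their partners, 4 were tested, and 1 was called with LPS, beside 9.05% of all genes. Ly86, which encodes the MD-1 protein, was lower with LPS than in medium (−1.43 ± 0.31, adjusted p = 0.0199). Its mean was 6.00 in medium, and also lower with oxLDL (4.89, limma adjusted p = 0.073) and oxPAPC (5.14), neither of them called. In medium over fresh intima 2 genes were higher, Ly86 and Tlr7, and 2 lower, Tlr3 and Tlr9, beside 58.7% of all genes called. Tlr9 averaged 4.56 in medium, under the 40th percentile of any array, and passed the level filter only through the fresh arrays. Tlr3, the receptor for double-stranded RNA, was lower in medium than in fresh intima (−1.43 ± 0.21, adjusted p = 0.000215). Itgb2 is expressed by leukocytes, whose markers shifted in the same comparisons, and their part in its values was not tested.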

How the data were processed

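Expression was measured on 22 Affymetrix arrays in 6 groups. The authors deposited log2 values computed by RMA (affy; the submitters' processing notes name no version). Quantile normalization, a step of RMA, would hide a change common to most transcripts. Of 22626 probe sets, 18003 carried 1 gene symbol in the platform annotation, 287 several and 4336 none. Symbols were updated through a RefSeq table (GRCm38.p6), which matched 17977. Files of raw probe intensities were not used here.

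The probe set with the highest mean stood for a gene. Differences were fitted with limma 3.58.1 in R 4.3.3 across all genes above the 40th percentile of their array on as many arrays as the smaller group holds, or more, and p-values were adjusted over all genes tested (Benjamini-Hochberg, two-sided, called under 0.05). The 12 incubated arrays were fitted together, the fresh and the medium comparisons apart. A member below the filter got an exact permutation test. Every member is named. From each gene list up to 4 called genes a direction are named, by smallest adjusted p, or a part of these. The members and lists were chosen with earlier results of these data known. Alternatives changed the filter, scaling, choice of probe set, samples fitted and replicates. The fit was tested on simulated data. The number of arrays limits the precision.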

Additional observations from a re-analysis of the deposited data

Results flagged for a closer look

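Of 14 group and gene pairs with enough arrays to look for a lone outlying value, 1 stood out. Tlr2 in fresh wild-type replicate 7 was at 4.75, below the other 5 arrays, the nearest of which was at 5.00, a gap of 0.738 of the group's range, beyond Dixon's limit for 6 arrays. Chance alone gives about 1 such value in 20 groups.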

How the results depend on the processing

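Each of 56 member differences was recomputed under alternatives, giving 777 values, of which 724 kept their sign and call, 22 lost the call, 4 gained it and 27 changed sign. None of the sign changes was in a called difference. Members called changed as follows, and the cause was not tested unless named. For LPS over medium the count went to 1 with the mean of all probe sets (Irak1), and was 0 to 1 with a replicate left out. For oxPAPC over medium it was 3 with the mean of all probe sets (Irak1 added) and 1 to 2 with a replicate left out. For LPS over oxLDL it was 0 without a filter on low values (Tlr2, adjusted p = 0.0601), 0 with only those 2 groups fitted (adjusted p = 0.106), and 0 to 1 with a replicate left out. For LPS over oxPAPC it was 1 to 2 with a replicate left out. For oxLDL over oxPAPC it was 1 with only those 2 groups fitted and 1 to 2 with a replicate left out. For medium over fresh wild type it was 2 with a filter at the 60th percentile (Myd88 and Traf6), where Tlr2 and Ly96 were no longer tested, 5 without a filter (Cd14 added), and 3 to 4 with a replicate left out. With all 22 arrays in 1 fit Ly96 lost its call there (adjusted p = 0.0715).

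Sign changes were these. With cyclic loess scaling Myd88 in ApoE knockout over wild type was −0.0012 and Traf6 in LPS over medium 0.0897, and with median centring that Traf6 value was 0.0202. With the mean of its probe sets Irak1 was −0.174 in LPS over oxLDL and −5.1e-06 in LPS over oxPAPC. With a replicate left out, ApoE knockout over wild type ran between −0.0608 and 0.249 for Myd88, −0.252 and 0.0335 for Tlr2, −0.0114 and 0.171 for Tlr4, and −0.122 and 0.0645 for Irak1. Traf6 ran between −0.13 and 0.151 in LPS over medium and between −0.0866 and 0.0665 in oxLDL over oxPAPC. Ly96 ran between −0.102 and 0.429 in oxLDL over medium, −0.324 and 0.0745 in oxPAPC over medium, and −0.55 and 0.13 in LPS over oxPAPC. Cd14 ran between −0.0782 and 0.508 in LPS over oxLDL. Irak1 ran between −0.157 and 0.171 in LPS over oxLDL, −0.0897 and 0.238 in LPS over oxPAPC, and −0.0116 and 0.134 in oxLDL over oxPAPC.

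Counts over all genes moved more. With a replicate left out they were 1 to 68 for ApoE knockout over wild type (31 with all arrays), 235 to 389 for LPS over medium (683), 23 to 271 for oxLDL (212), 738 to 2007 for oxPAPC (1606), 132 to 266 for LPS over oxLDL (383), 247 to 1207 for LPS over oxPAPC (653) and 347 to 1372 for oxLDL over oxPAPC (934). Under the other alternatives the ranges were 6 to 77 for ApoE knockout over wild type, 96 to 287 for oxLDL, 224 to 450 for LPS over oxLDL, 347 to 753 for LPS over oxPAPC and 549 to 1027 for oxLDL over oxPAPC. No paired analysis was possible because the groups compared share fewer than 2 replicate numbers. With 3 arrays a group, and Cd14 and Tlr2 near the level filter, small differences of these genes were not detectable.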
